A study of Mus musculus with 10 samples.

Results

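A set of 10 genes of mitochondrial fatty acid oxidation, *Hadha*, *Hadhb*, *Acadm*, *Acadl*, *Acadvl*, *Cpt1a*, *Cpt1c*, *Cpt2*, *Acaa2* and *Etfdh*, was followed in cortical neurons after deletion of *Cdk7*, which encodes a kinase of the general transcription factor TFIIH and of the complex that activates cell cycle kinases. They were selected by name as carnitine transfer and beta-oxidation enzymes, 10 of the 55573 genes in the count table, and the family was chosen because *Hadha* was lower in the knockout. The knockout against control values of these genes are therefore given as a description, without a test. All 10 genes passed the filter on low counts. They are protein-coding genes on mouse chromosomes 5 (*Hadha*, *Hadhb*), 3 (*Acadm*, *Etfdh*), 1 (*Acadl*), 11 (*Acadvl*), 19 (*Cpt1a*), 7 (*Cpt1c*), 4 (*Cpt2*) and 18 (*Acaa2*).

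The samples were cortices of mouse pups at postnatal day 3, dissociated and sorted for EYFP, with 1 preparation per mouse. The 5 Ctrl mice were NexCre/+;Cdk7+/+;R26EYFP/+ and the 5 Cdk7_KO mice NexCre/+;Cdk7lox/lox;R26EYFP/+. Both genotypes thus carried 1 NexCre allele and the EYFP reporter, and differed in the floxed *Cdk7* alleles. NexCre is expressed from the *Neurod6* locus in postmitotic excitatory neurons of the cortex, so the same recombinase marks the sorted cells and deletes the gene. The labels call the sorted cells cortical projection neurons.

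Fatty acids enter mitochondria as carnitine esters. A carnitine palmitoyltransferase of the outer membrane, CPT1A in most tissues, makes the ester, and CPT2 on the inner membrane returns it to acyl-CoA. Each turn of beta-oxidation then begins with an acyl-CoA dehydrogenase chosen by chain length (ACADVL for very long, ACADL for long and ACADM for medium chains), whose electrons pass through ETFDH to ubiquinone. The trifunctional protein, built from HADHA and HADHB, carries out the next steps on long chains, and ACAA2 is a thiolase of the matrix. In brain this pathway is known mainly from astrocytes and neural progenitors, while CPT1C is a neuronal relative of CPT1A that lies in the endoplasmic reticulum and has little transferase activity.

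Promoter windows from RefSeq (GRCm38.p6), spanning 250 bases before to 50 bases after the start site, were found for 9 of the 10 genes. *Hadha* (chr5:30118304-30155162, minus strand) and *Hadhb* (chr5:30155248-30184593, plus strand, both GENCODE M21) lie head to head, with 272 bases between their RefSeq start sites, so that their windows share 228 bases. The windows of *Hadha* (chr5:30154931-30155230, minus strand), *Acadl* (chr1:66863260-66863559, minus strand), *Cpt1a* (chr19:3323051-3323350, plus strand) and *Cpt1c* (chr7:44974802-44975101, minus strand) are shown because these genes carry the contrasts described below. Capitals mark matches on either strand to the TATA box (searched as TATAAA), the box named for its letters CCAAT, the GC box (GGGCGG), the core of ETS family sites (CCGGAA), the core of YY1 sites (AAGATGG), the nuclear receptor half-site (AGGTCA), a direct repeat of that half-site spaced by 1 base, or the NRF1 element.
Hadha: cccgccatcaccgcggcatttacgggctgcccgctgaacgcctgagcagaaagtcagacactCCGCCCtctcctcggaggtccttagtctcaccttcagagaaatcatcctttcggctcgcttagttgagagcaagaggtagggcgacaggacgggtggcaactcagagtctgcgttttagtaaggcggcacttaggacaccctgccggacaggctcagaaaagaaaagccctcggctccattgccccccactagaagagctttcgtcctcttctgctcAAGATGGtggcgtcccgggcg
Acadl: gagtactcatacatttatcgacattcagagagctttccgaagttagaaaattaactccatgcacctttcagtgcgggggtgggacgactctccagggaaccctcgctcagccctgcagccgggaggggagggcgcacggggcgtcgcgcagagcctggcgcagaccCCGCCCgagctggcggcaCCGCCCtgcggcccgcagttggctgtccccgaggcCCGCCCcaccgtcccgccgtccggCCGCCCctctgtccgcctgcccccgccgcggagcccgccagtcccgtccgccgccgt
Cpt1a: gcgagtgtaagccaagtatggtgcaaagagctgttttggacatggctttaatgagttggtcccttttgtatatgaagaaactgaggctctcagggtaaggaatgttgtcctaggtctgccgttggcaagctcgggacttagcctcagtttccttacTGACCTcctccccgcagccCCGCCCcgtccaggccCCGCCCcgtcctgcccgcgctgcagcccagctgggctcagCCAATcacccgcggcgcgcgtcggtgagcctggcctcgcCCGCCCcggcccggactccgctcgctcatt
Cpt1c: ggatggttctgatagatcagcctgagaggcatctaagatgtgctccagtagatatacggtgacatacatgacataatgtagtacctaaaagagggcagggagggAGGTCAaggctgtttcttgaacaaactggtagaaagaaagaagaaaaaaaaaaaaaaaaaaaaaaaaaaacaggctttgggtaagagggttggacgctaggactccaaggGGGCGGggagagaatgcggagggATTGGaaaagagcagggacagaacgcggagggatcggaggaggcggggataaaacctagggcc

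GGGCGG stood in 7 of the 9 windows, all but those of *Acadm* and *Acadvl*, against 35.7% of the 32851 windows of this length in the table. The match in the *Hadha* window lies in the bases shared with the *Hadhb* window and is counted for both genes. The windows compared were not matched for CG content. TATAAA stood in none of the 9, against 13.6% of all windows. AGGTCA stood in the windows of *Acadm*, *Acadvl*, *Cpt1a* and *Cpt1c*, against 16.3% of all windows. CCAAT stood in 3 of the 9 (37.4% of all windows), CCGGAA in 2 (14.9%) and AAGATGG in 2, *Hadha* and *Acadvl* (6.34%). The direct repeat and the NRF1 element were not found in any of the 9 windows, against 0.0396% and 1.27% of all windows. The *Acadl* window was the richest in CG dinucleotides of the 4 shown, with 34 against 22 in *Cpt1a*, 20 in *Hadha* and 8 in *Cpt1c*. The median over all windows was 7.

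Libraries held 23497621 to 31233466 counts in genes. *Cdk7* itself stood at 15.65 ± 4.00 CPM (counts per 1000000 counts of the library, SD, n = 5) in Ctrl and 5.16 ± 1.30 (n = 5) in Cdk7_KO, 33.0% of the Ctrl mean, and the groups did not overlap. Its log2 fold change was -1.54 (SE 0.22), with an exact two-sided permutation p of 0.0079, the smallest that 252 assignments of 5 and 5 libraries allow. edgeR's quasi-likelihood test gave *Cdk7* an adjusted p of 0.161 over 15578 genes. *Xist* and *Ddx3y* marked Ctrl 1 and 3 and Cdk7_KO 1, 2 and 3 as male and Ctrl 4, 5 and 6 and Cdk7_KO 4 and 5 as female, so sex and the low or high replicate numbers cannot be told apart. The sum of 14 projection neuron markers ranged from 4128 to 5372 CPM in Ctrl and from 4805 to 5871 CPM in Cdk7_KO. Of these 14 markers, 2 had a lower fitted value in Cdk7_KO, and their median log2 fold change was 0.20. Markers of other cells were also present. The 20 radial glia and astrocyte markers summed to 1435 to 2721 CPM in Ctrl and 379 to 1545 CPM in Cdk7_KO, and all 20 had a lower fitted value in Cdk7_KO (median log2 fold change -1.08).

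All 10 oxidation genes had a negative log2 fold change, Cdk7_KO over Ctrl, with a median of -0.42 and a range of -0.95 (*Acadl*) to -0.04 (*Cpt1c*). Over all genes tested the median was 0.01, and 47.5% of genes had a negative value. In 2 genes, *Hadha* and *Acaa2*, every Cdk7_KO library lay below every Ctrl library, which held for 2.41% of all genes. edgeR called none of the 10, and 0 of the 15578 genes tested (0%), although 2393 genes had an unadjusted p under 0.05. limma voom also called 0 genes. DESeq2 called *Hadha*, *Hadhb* and *Acadl* lower, where it called 3.32% of the genes with an adjusted p lower. With sex added as a factor edgeR called *Hadha*, *Acadl* and *Cpt1a* lower, where it called 4.40% of all genes lower. Because the family was chosen on this contrast, nothing is read from these counts. In bulk samples such as these, fewer cells of a type and less RNA per cell cannot be told apart.

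**Figure D1:**
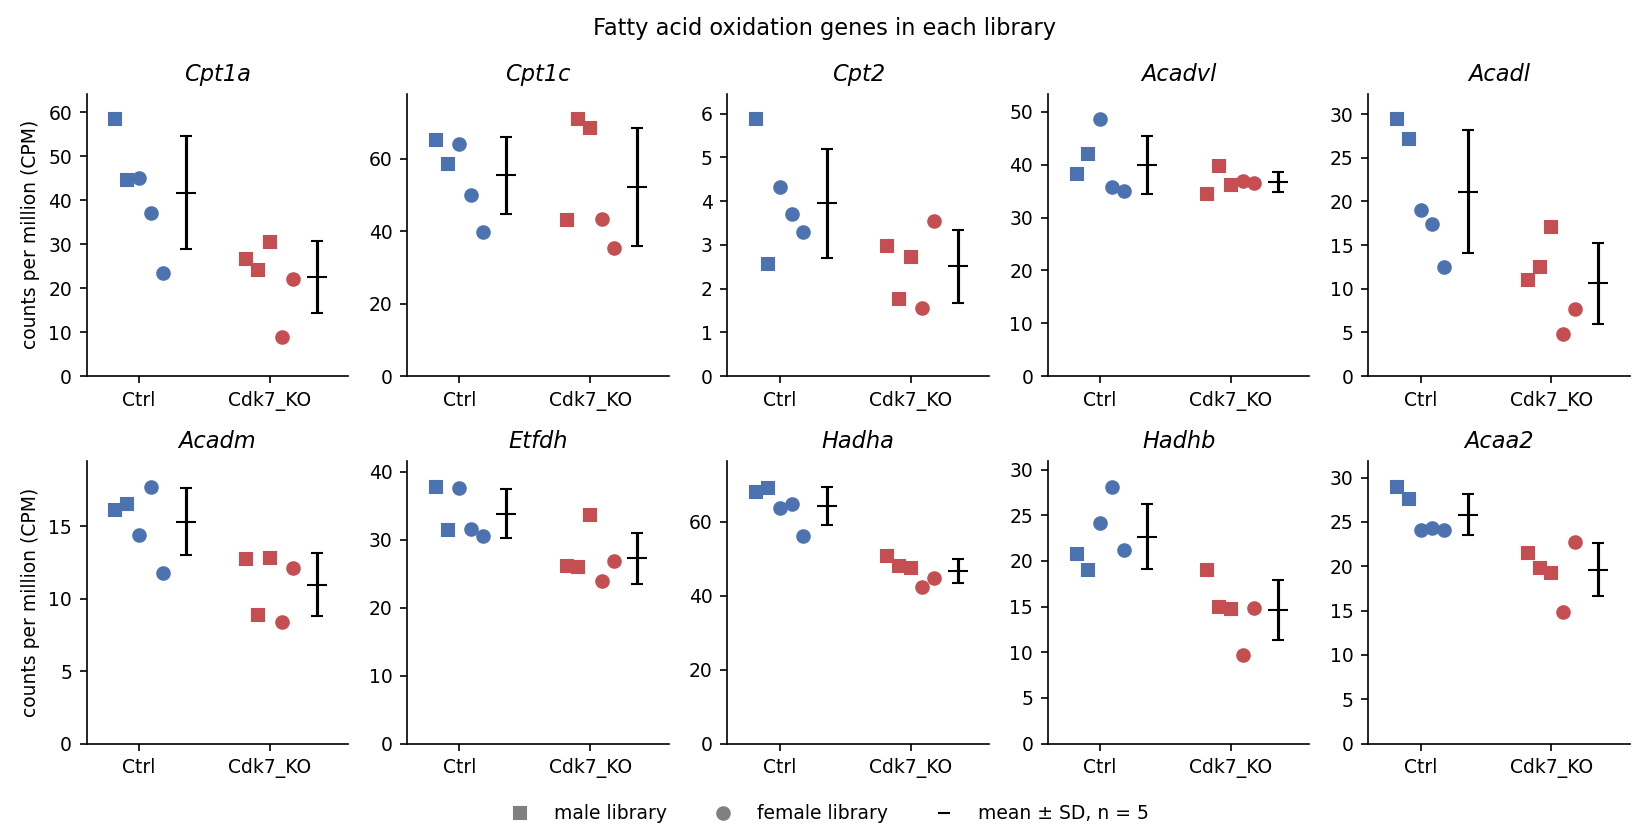
CPM (vertical axes, each from 0) of the 10 genes in each of the 5 Ctrl and 5 Cdk7_KO libraries, in replicate order within a group, with squares for male and circles for female libraries and bars for mean ± SD. *Hadha* and *Acaa2* show no overlap between genotypes, *Cpt1c* has its highest and its lowest library in Cdk7_KO, and in *Acadl* the male libraries lie above the female ones within Ctrl.

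Of the carnitine palmitoyltransferases, *Cpt1a* and *Cpt1c* had different values under the same contrast. *Cpt1a* stood at 58.4, 44.7, 45.1, 37.0 and 23.46 CPM in Ctrl 1, 3, 4, 5 and 6, and at 26.6, 24.2, 30.5, 8.87 and 22.1 CPM in Cdk7_KO 1 to 5. Of the Ctrl libraries, 4 lay above all Cdk7_KO libraries, Ctrl 6 lay among them, and Cdk7_KO 4 was the lowest of all. The means were 41.7 ± 12.8 and 22.5 ± 8.21 CPM (SD, n = 5 each), a log2 fold change of -0.85 (SE 0.28). *Cpt1c* stood at 65.2, 58.4, 63.9, 50.01 and 39.8 CPM in Ctrl and at 43.1, 70.9, 68.5, 43.4 and 35.4 CPM in Cdk7_KO. Here the highest and the lowest library were both Cdk7_KO, and the log2 fold change was -0.04 (SE 0.19).

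The counts of *Cpt1c* over those of *Cpt1a*, a ratio taken within each library and so free of its total, were 1.12, 1.31, 1.42, 1.35 and 1.69 in Ctrl and 1.62, 2.93, 2.25, 4.89 and 1.603 in Cdk7_KO. Of the Cdk7_KO libraries, 3 exceeded the highest Ctrl ratio, and the means were 1.38 ± 0.21 and 2.66 ± 1.36 (SD, n = 5 each). *Cpt2*, the inner-membrane enzyme, had the fewest counts of the family, with Ctrl at 3.95 ± 1.25 CPM and Cdk7_KO at 2.51 ± 0.84 CPM (SD, n = 5 each). It rested on 37 to 138 counts per library, and its log2 fold change of -0.60 had an SE of 0.29.

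Of the 3 acyl-CoA dehydrogenases, *Acadvl*, for very long chains, stood at 38.3, 42.0, 48.6, 35.8 and 35.1 CPM in Ctrl and 34.5, 39.8, 36.2, 36.9 and 36.6 CPM in Cdk7_KO, a log2 fold change of -0.06 (SE 0.09). Ctrl 3 and 4 lay above every Cdk7_KO library, and the other 3 Ctrl libraries lay among them. *Acadvl* shares 1151 bases, 42.9% of its exon length, with *Dvl2* on the opposite strand, and the strand setting of the counting is not given in the sources used here, so its level is uncertain. *Dvl2* had a log2 fold change of -0.16 (SE 0.15).

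*Acadl* had the largest difference of the family. Its levels were 29.4, 27.2, 19.1, 17.5 and 12.4 CPM in Ctrl and 11.1, 12.5, 17.1, 4.84 and 7.74 CPM in Cdk7_KO, with a log2 fold change of -0.95 (SE 0.31). The lowest Ctrl library, Ctrl 6, lay below Cdk7_KO 2 and 3, and the Ctrl libraries alone had a coefficient of variation of 33.4%, against 8.002% for *Hadha*. *Acadl* counts over *Acadvl* counts came to 0.530 ± 0.174 in Ctrl and 0.290 ± 0.128 in Cdk7_KO (SD, n = 5 each), with overlap. *Acadm*, for medium chains, stood at 16.1, 16.5, 14.4, 17.7 and 11.8 CPM in Ctrl and 12.8, 8.87, 12.9, 8.37 and 12.1 CPM in Cdk7_KO. Ctrl 6 again lay among the Cdk7_KO libraries, and the log2 fold change was -0.43 (SE 0.16).

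*Etfdh*, which hands the electrons of the acyl-CoA dehydrogenases to the respiratory chain, came next. Its levels were 37.8, 31.4, 37.6, 31.6 and 30.6 CPM in Ctrl and 26.1, 26.0, 33.7, 23.9 and 26.8 CPM in Cdk7_KO. Of the Cdk7_KO libraries, 4 lay below all Ctrl libraries and Cdk7_KO 3 lay among them, and the log2 fold change was -0.26 (SE 0.10).

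The subunits of the trifunctional protein had unequal spread. *Hadha*, the alpha subunit with the hydratase and dehydrogenase activities, stood at 68.1, 69.3, 63.7, 64.8 and 56.2 CPM in Ctrl and 50.8, 48.1, 47.6, 42.4 and 45.0 CPM in Cdk7_KO. The highest Cdk7_KO library lay below the lowest Ctrl library, and the log2 fold change was -0.41 (SE 0.07). *Hadhb*, the beta subunit with the thiolase activity, stood at 20.7, 19.0, 24.2, 28.1 and 21.2 CPM in Ctrl and 19.0, 14.9, 14.8, 9.76 and 14.8 CPM in Cdk7_KO. Cdk7_KO 1 and Ctrl 3 met at the same level, the other 4 Cdk7_KO libraries were lower, and the log2 fold change was -0.58 (SE 0.16).

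*Hadhb* counts over *Hadha* counts were 0.354 ± 0.064 in Ctrl and 0.311 ± 0.052 in Cdk7_KO (SD, n = 5 each), and the ratios overlapped. The Pearson r of their log2 CPM, with each genotype's mean removed, was 0.17 over the 10 libraries, a description that put *Hadhb* at place 4081 of 11067 genes by likeness to *Hadha*. *Acadl* was the closest of the other 9 family members (r = 0.73). The 5 genes closest to *Hadha* were *Dazap2* (r = 0.94), *Ifngr1* (0.93), *Snx9* (0.92), *Tmem98* (0.91) and *M6pr* (0.91). All these values share the same 10 libraries and their composition.

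*Acaa2*, a matrix thiolase, was the other gene without overlap. Its levels were 29.0, 27.6, 24.1, 24.3 and 24.1 CPM in Ctrl and 21.5, 19.8, 19.3, 14.9 and 22.8 CPM in Cdk7_KO. The gap was small, from 22.8 CPM in Cdk7_KO 5 to 24.1 CPM in the lowest Ctrl libraries, and the log2 fold change was -0.34 (SE 0.12).

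Scaled by length, as CPM per kilobase of exon (RPKM), the family spanned about an order of magnitude in Ctrl. *Acaa2* (17.0 ± 1.53 RPKM, SD, n = 5) and *Acadvl* (14.9 ± 2.07) led, followed by *Acadl* (10.5 ± 3.51), *Cpt1c* (9.89 ± 1.89), *Hadha* (7.38 ± 0.59), *Cpt1a* (5.46 ± 1.68), *Etfdh* (4.50 ± 0.48), *Acadm* (3.91 ± 0.59), *Hadhb* (3.44 ± 0.54) and *Cpt2* (1.65 ± 0.52). Between neighbours, only *Cpt1c* above *Hadha*, *Hadha* above *Cpt1a* and *Hadhb* above *Cpt2* kept their order in all 5 Ctrl libraries. The other 6 neighbouring pairs changed places in at least 1 library. With the length of the longest transcript in place of all exons, 5 of the 10 genes kept their place in Ctrl, and *Acadvl* (18.4 RPKM) came first.

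In Cdk7_KO the order by RPKM began with *Acadvl* (13.7 ± 0.71), *Acaa2* (12.95 ± 1.97) and *Cpt1c* (9.32 ± 2.90). *Acadl* stood at 5.30 ± 2.32 beside *Hadha* at 5.36 ± 0.37 (5.55 and 11.6 RPKM with the longest transcript), and *Cpt1a* at 2.94 ± 1.07 stood below *Etfdh* at 3.64 ± 0.50 (SD, n = 5 each). *Hadha* was above *Acadl* in 3 of 5 Cdk7_KO libraries and *Etfdh* above *Cpt1a* in 4 of 5.

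**Figure D2:**
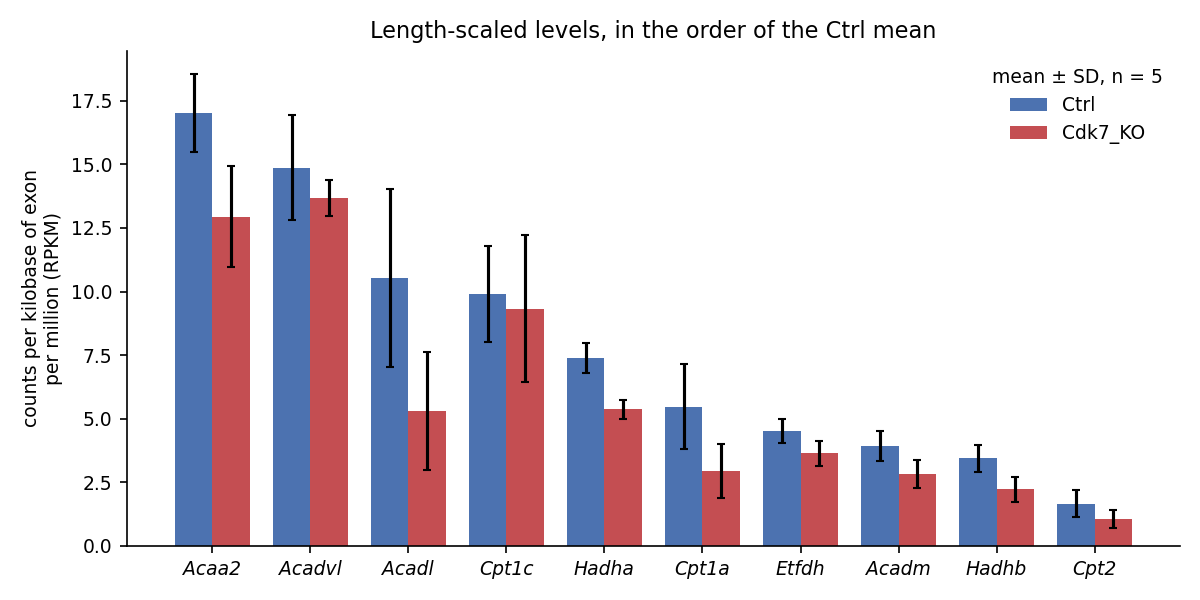
Mean levels per length (CPM per kilobase of exon, ± SD, n = 5) of the 10 genes in Ctrl and Cdk7_KO, ordered by the Ctrl mean. By this length *Acaa2* and *Acadvl* are the highest in both genotypes and *Cpt2* is the lowest, while the *Acadl* bar is 10.5 in Ctrl and 5.30 in Cdk7_KO. With the longest transcript, *Cpt1c* (16.0) stood above *Acaa2* (12.95) in Cdk7_KO. The level of *Acadvl* is uncertain because of its overlap with *Dvl2*.

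The comparison of female with male libraries, with genotype in the model, did not enter the choice of the genes. Sex and the low or high replicate numbers cannot be told apart in it. *Acadl* was lower in female libraries, with a log2 fold change of -0.93 (SE 0.17, edgeR adjusted p = 0.0434). It was the 1 gene of the 10 called, where 0.353% of all genes were called. The *Acadl* means were 28.3 CPM in 2 male and 16.3 CPM in 3 female Ctrl libraries, and 13.5 CPM in 3 male and 6.29 CPM in 2 female Cdk7_KO libraries. Within Ctrl every female library lay below every male one, and the same held within Cdk7_KO.

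DESeq2 also called *Acadl* lower in female libraries (-0.94, adjusted p = 1.52e-05). The edgeR call was lost without Ctrl 1 (adjusted p = 0.0868), Ctrl 3 (0.0733), Ctrl 5 (0.1042), Ctrl 6 (0.1153), Cdk7_KO 2 (0.0691), Cdk7_KO 3 (0.0812) or Cdk7_KO 4 (0.0873). The log2 fold change stayed between -1.02 and -0.81 in all 10 such fits. *Cpt1a* had a log2 fold change of -0.66 (SE 0.22, adjusted p = 0.144) and *Cpt1c* of -0.43 (SE 0.15, adjusted p = 0.176), neither passing the test. Of the 10 genes, 9 had a negative value, and *Acadvl* stood at 0.01 (SE 0.10). The share of all genes with a negative value by sex is not given, so nothing is read from this count. Summed markers of other cells had different means in these libraries too. Radial glia and astrocyte markers had a mean sum of 2529 CPM in male and 2026 CPM in female Ctrl, with overlap, and of 1393 and 583 CPM in male and female Cdk7_KO. Endothelial and pericyte markers had 1100 and 285 CPM in male and female Ctrl and 244 and 140 CPM in male and female Cdk7_KO. Interneuron markers were at 168 and 435 CPM in Ctrl and 222 and 92.7 CPM in Cdk7_KO, and oligodendrocyte lineage markers at 422 and 834 CPM in Ctrl and 390 and 330 CPM in Cdk7_KO, in the same order. With the glial marker level as a further term the *Acadl* log2 fold change by sex was -0.58 (SE 0.19, adjusted p = 0.240). The part of these markers in the *Acadl* difference was not tested.

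Whether the genotype difference itself depended on sex, or on the replicate numbers that go with it, was tested by an interaction term. edgeR called 0 of 15578 genes (0%), with 1143 at an unadjusted p under 0.05, and DESeq2 called 12. edgeR called none of the 10 oxidation genes. *Hadhb* had the largest term of the 10, -0.64 (SE 0.28, edgeR adjusted p = 0.665). Its log2 fold change was -0.27 in the male libraries alone and -0.90 in the female libraries alone. *Hadha* had -0.48 and -0.40, *Acadl* -1.05 and -1.28, and *Cpt1a* -0.91 and -1.09, in male and female libraries alone. All 10 genes were negative in both sets. Both sets are parts of the contrast on which the family was chosen, so nothing is read from this count.

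**Figure D3:**
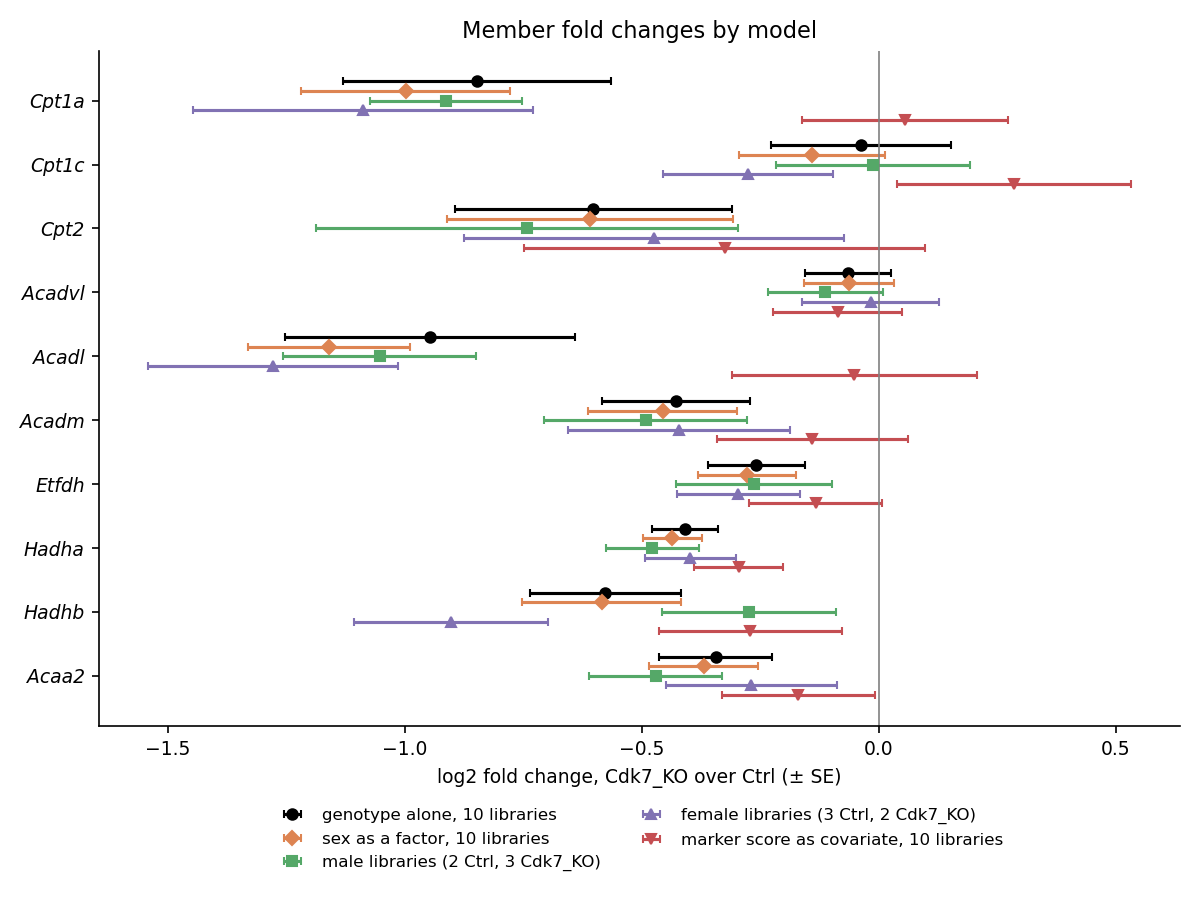
Log2 fold changes (± SE) of the 10 genes, Cdk7_KO over Ctrl, from the model with genotype alone, with sex as a factor, in male or female libraries alone, and with the glial marker score as a covariate. *Hadha*, on whose genotype difference the family was chosen, lies between -0.48 and -0.30 in all 5. Differences between the genes were not tested. From genotype alone to the marker score *Hadha* goes from -0.41 to -0.30, *Cpt1a* from -0.85 to 0.06 and *Acadl* from -0.95 to -0.05.

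The levels of the oxidation genes were also set beside those of glial markers. The score used, the mean log2 CPM of the 20 radial glia and astrocyte markers, was 5.83, 5.98, 5.79, 5.75 and 5.17 in Ctrl and 5.21, 4.82, 5.18, 3.18 and 4.29 in Cdk7_KO. Ctrl 6 had the lowest Ctrl score and Cdk7_KO 4 the lowest of all. These are also the Ctrl and the Cdk7_KO library with the lowest *Cpt1a* and *Acadl*.

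With genotype kept in the model, the slope on the score was tested over all genes. *Cpt1a* rose by 0.83 on the log2 scale per unit of the score (SE 0.14, edgeR adjusted p = 0.0129), and *Acadl* by 0.82 (SE 0.17, adjusted p = 0.0352). These were 2 of the 10 genes with a positive slope called, where 1.23% of all genes were. *Hadha* had a slope of 0.10 (SE 0.06, adjusted p = 0.461), *Hadhb* of 0.28 (SE 0.12, adjusted p = 0.326), *Cpt1c* of 0.28 (SE 0.15, adjusted p = 0.423) and *Acadvl* of -0.02 (SE 0.08, adjusted p = 0.944). Differences between these slopes were not tested.

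Both slope calls depended on single libraries. Without Cdk7_KO 4 the adjusted p was 0.534 for *Cpt1a* (slope 0.75) and 0.345 for *Acadl* (slope 1.09), and 19 genes in all were called in place of 199. The *Acadl* call was also lost without Ctrl 3 (adjusted p = 0.0695), Ctrl 6 (0.1078), Cdk7_KO 2 (0.0571), Cdk7_KO 3 (0.1450) or Cdk7_KO 5 (0.0674). With sex as a further term the slopes were 0.75 (SE 0.20, adjusted p = 0.132) for *Cpt1a*, 0.53 (SE 0.15, adjusted p = 0.152) for *Hadhb* and 0.45 (SE 0.18, adjusted p = 0.326) for *Acadl*.

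Across the genotypes, 3 libraries had nearly the same marker score, Ctrl 6 (5.17), Cdk7_KO 1 (5.21) and Cdk7_KO 3 (5.18). They were picked after the values were seen, so their levels are set side by side without a test. Ctrl 6 is a female library and Cdk7_KO 1 and 3 are male, so genotype and sex cannot be told apart among them. *Cpt1a* stood at 23.46 CPM in Ctrl 6 and at 26.6 and 30.5 CPM in Cdk7_KO 1 and 3. *Acadl* stood at 12.4 CPM against 11.1 and 17.1 CPM, and *Hadha*, on whose genotype difference the family was chosen, at 56.2 CPM against 50.8 and 47.6 CPM.

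**Figure D4:**
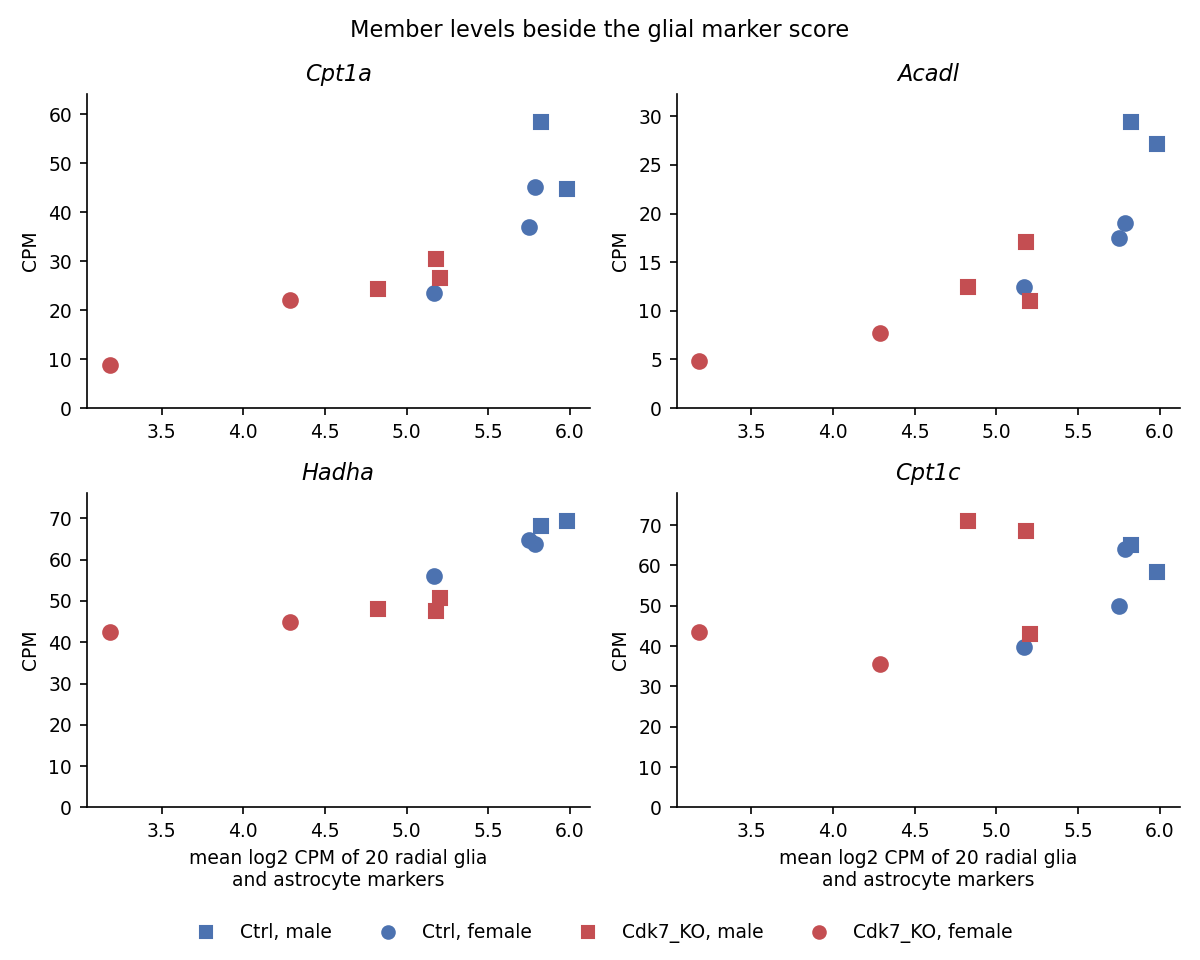
CPM of *Cpt1a*, *Acadl*, *Hadha* and *Cpt1c* (vertical axes) against the mean log2 CPM of 20 radial glia and astrocyte markers (horizontal axes) in the 10 libraries, colored by genotype, with squares for male and circles for female. *Cpt1a* is lowest in Cdk7_KO 4, the library with the lowest score. *Hadha*, on whose genotype difference the family was chosen, lies between 42.4 and 50.8 in Cdk7_KO, below every Ctrl library. Of the Ctrl libraries only Ctrl 6 lies within the range of the Cdk7_KO scores, and differences between the genes were not tested.

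In the genotype comparison with the marker score as a covariate, the median log2 fold change of the 10 genes was -0.14 against -0.42 without it. Of the 10 genes, 8 had negative values. These were *Cpt2* (-0.33, SE 0.42), *Hadha* (-0.30, SE 0.09), *Hadhb* (-0.27, SE 0.19) and *Acaa2* (-0.17, SE 0.16). The others were *Acadm* (-0.14, SE 0.20), *Etfdh* (-0.13, SE 0.14), *Acadvl* (-0.09, SE 0.14) and *Acadl* (-0.05, SE 0.26). *Cpt1a* (0.06, SE 0.22) and *Cpt1c* (0.28, SE 0.25) were positive. Except for *Acadvl*, each value was closer to 0 than with genotype alone or had turned positive. *Cdk7* had -1.64 (SE 0.32) in the same fit, in which edgeR called 0 of 15578 genes. Over all genes 443 had an unadjusted p under 0.05 in that fit, against 2393 with genotype alone. The fold changes of all genes in that fit are not given, so nothing is read from the counts and the median of the 10 genes. The score and genotype are linked in these libraries, and the part of the glial markers in the genotype differences was not tested. Markers of other cells were also lower in Cdk7_KO by their fitted medians with genotype alone. The median log2 fold changes were -1.60 for endothelial and pericyte, -1.53 for erythroid and fibroblast, and -1.09 for dividing progenitor markers. They were -0.90 for interneuron, -0.88 for oligodendrocyte lineage and -0.79 for microglia markers, beside -1.08 for the glial markers. No score of these other lists was fitted. Summed microglia markers were at 177 to 519 CPM in Ctrl and 89.8 to 276 CPM in Cdk7_KO, and summed endothelial and pericyte markers at 255 to 1560 CPM and 76.3 to 358 CPM. Oligodendrocyte lineage markers summed to 369 to 1113 and 225 to 648 CPM, interneuron markers to 105 to 516 and 29.1 to 355 CPM, and markers of dividing progenitors to 105 to 155 and 48.2 to 106 CPM. Erythroid and fibroblast markers summed to 89.1 to 228 CPM in Ctrl and 35.4 to 84.4 CPM in Cdk7_KO, without overlap. No marker of these lists was at 0 in all 10 libraries.

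The rest of the pathway was followed in lists chosen by function. With genotype alone, or with the marker score as a covariate, edgeR called no gene of these lists. With sex as a factor it called *Hadh*, *Eci2*, *Crot*, *Ppard*, *Pdk4*, *Angptl4*, *Plin2*, *Ucp2* and *Fabp7* lower. In that fit 4.40% of all genes were called lower. Among 11 other enzymes of matrix beta-oxidation 9 had negative values (median -0.15), and DESeq2 called 4 lower, *Acads*, *Hadh*, *Eci2* and *Decr1*. DESeq2 called 3.32% of all genes with an adjusted p lower. *Hadh*, the dehydrogenase of shorter hydroxyacyl chains, had 14.9 ± 4.16 CPM in the Ctrl and 7.60 ± 2.34 CPM in the Cdk7_KO libraries (SD, n = 5 each), a log2 fold change of -0.92 (SE 0.25). The Cdk7_KO maximum of 9.97 CPM exceeded the Ctrl minimum of 9.25 CPM. *Acads*, for short chains, had -0.67 (SE 0.21) with every Cdk7_KO library below every Ctrl library, and *Decr1*, which handles unsaturated chains, had -0.60 (SE 0.18). With the glial marker score as a covariate *Hadh* had -0.24, *Acads* -0.19 and *Decr1* -0.42, and the list's median was 0.01.

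Of 4 tested genes of carnitine uptake and other carnitine transfer, 3 were negative. *Slc25a20*, the carnitine and acylcarnitine carrier between CPT1 and CPT2, had 27.5 ± 1.88 CPM in the Ctrl and 21.9 ± 1.71 CPM in the Cdk7_KO libraries (SD, n = 5 each), without overlap and with a log2 fold change of -0.28 (SE 0.09). *Crot*, a peroxisomal transferase, had -0.65 (SE 0.16), a value called lower by DESeq2, and *Slc22a5*, the carnitine uptake transporter, had 0.25 (SE 0.09). With the marker score *Crot* had -0.27, *Slc25a20* -0.24 and *Slc22a5* 0.44. *Cpt1b*, the muscle form, did not pass the count filter.

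The 10 acyl-CoA synthetases and thioesterases had 5 negative values and a median of -0.02, with *Acsbg1* at -1.13 (SE 0.45). *Acsbg1* ranged from 19.9 to 50.2 CPM in Ctrl and from 2.78 to 33.2 CPM in Cdk7_KO, and had 0.42 with the marker score as a covariate. The 5 genes of malonyl-CoA and AMPK control had 2 negative values and a median of 0.01, with *Acacb* at -0.64 (SE 0.31). The 10 peroxisomal genes had 8 negative values and a median of -0.13.

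Among the regulators, 9 of 12 tested genes were negative with a median of -0.11. *Ppard*, a nuclear receptor for fatty acids, had -0.84 (SE 0.29), and *Rxrg*, a retinoid X receptor, -1.55 (SE 0.55) at 3.81 ± 2.18 CPM in Ctrl (n = 5). *Ppargc1a*, the coactivator known for mitochondrial gene expression, had -0.46 (SE 0.27). With the marker score as a covariate *Ppard* had -0.21, *Rxrg* -0.56 and *Ppargc1a* 0.06. Of 8 tested targets of the PPAR receptors and fatty acid binding proteins 7 were negative, with a median of -0.74. *Angptl4* had -1.73 (SE 0.52), *Pdk4*, which limits pyruvate entry, -1.33 (SE 0.45), and *Ucp2* -1.09 (SE 0.30). *Angptl4* stood at 28.6 CPM in Ctrl 1 and at 6.33 to 15.6 CPM in the other Ctrl libraries. *Ppard* stood at 38 CPM in Ctrl 1 and at 12.4 to 20.8 CPM in the others. *Pdk4* and *Ucp2* stood at 11.2 and 29.5 CPM in Ctrl 1 and at 10.4 and 30.1 CPM in Ctrl 3. With the marker score as a covariate *Angptl4*, *Pdk4* and *Ucp2* had -0.17, -0.24 and -0.26, and the list's median was -0.13. DESeq2, with genotype alone, called *Pdk4* and *Ucp2* of this list lower. *Fabp7* is in this list and also among the glial markers.

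**Figure D5:**
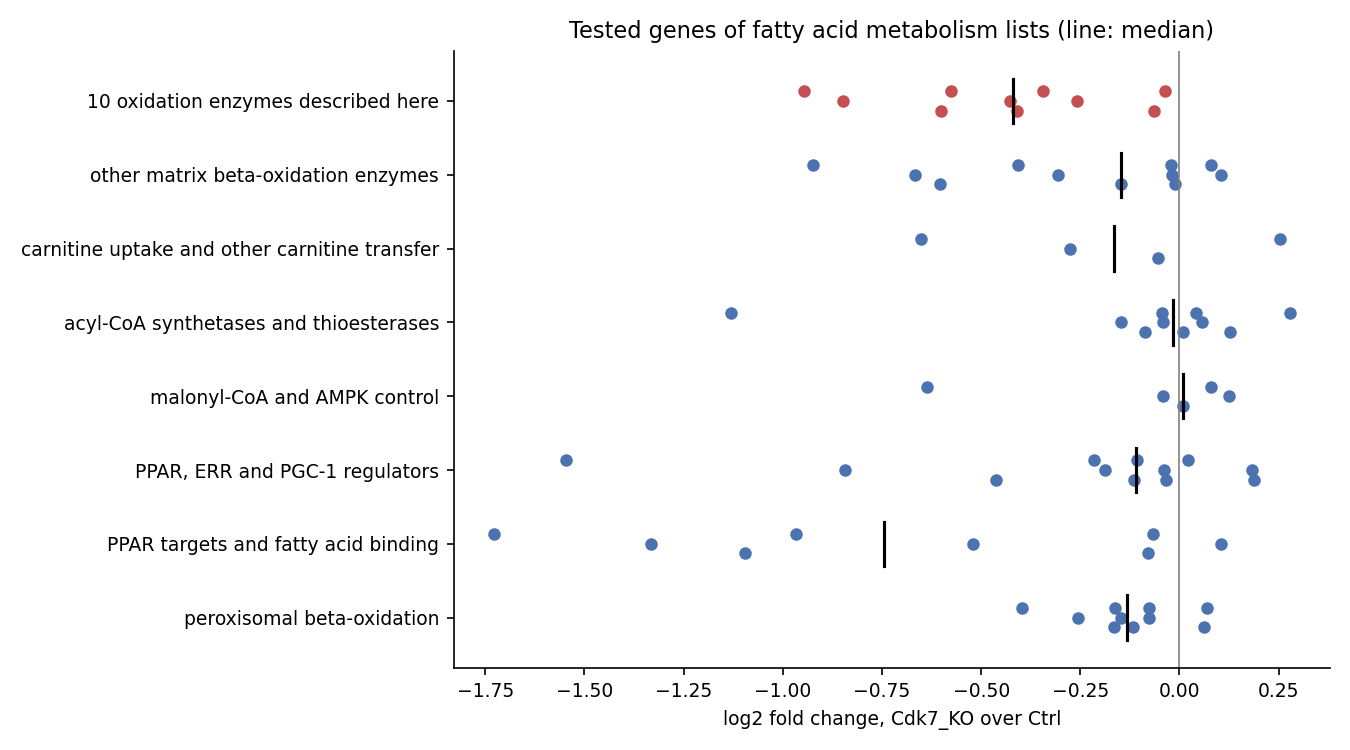
Log2 fold changes, Cdk7_KO over Ctrl, of every tested gene of the 10 oxidation enzymes (red) and 7 other lists of fatty acid metabolism (blue), with a black line at each list's median. The 10 enzymes lie between -0.95 and -0.04, and the list of PPAR targets and fatty acid binding proteins has the lowest median, -0.74.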

How the data were processed

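RNA of sorted cells was polyA-selected and made into libraries with a directional kit, per the labels' protocols. The authors deposited whole-number counts per gene for 10 libraries. STAR, Salmon and the GRCm38 build are named in the submitters' processing notes, and the strand setting is not given in the sources used here. The table held 55573 gene identifiers, of which 55480 matched GENCODE M21, the source of exon lengths. The genes, lists and tests were chosen with earlier results of these data known.

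CPM used library totals. The log2 CPM of the marker score and of the Pearson r used totals scaled by TMM factors, with a prior count of 2. Tests used edgeR 4.0.16 (filterByExpr, TMM, quasi-likelihood, Benjamini-Hochberg at 0.05 over 15578 genes) in R 4.3.3, with limma 3.58.1 and DESeq2 1.42.0 as alternatives, SEs are the log2 fold change over the root of edgeR's F statistic, and the code was tested on simulated data. Sex was read from *Xist* and *Ddx3y*. Named genes were the 10 enzymes, *Cdk7*, *Xist*, *Ddx3y*, up to 3 genes per pathway list, those at a mean CPM of 1 or more whose fold change was largest, and the 5 genes (mean CPM of 5 or more) most like *Hadha*. *Eci2*, *Plin2*, *Dvl2* and *Fabp7* were added after their values were seen. The slope on the marker score and the fit of *Acadl* by sex with that score were added after seeing the data. Alternatives covered test, scaling, filter, covariates and left-out libraries. Each CPM rests on 23497621 to 31233466 counts. No 2 libraries agreed within sampling noise (smallest chi-square per gene 8.53). A further pathway list is not reported here.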

Additional observations from a re-analysis of the deposited data

How the results depend on the processing

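Over 22 alternatives of the genotype comparison, 213 of 220 fold changes of the 10 genes were negative and 7 moved by over 1 SD. The positive ones were 5 of *Cpt1c*, 1 of *Acadvl* and 1 of *Cpt1a*, whose range was -1.11 to 0.06. *Hadha*, on whose genotype difference the family was chosen, ranged from -0.48 to -0.30 and moved by over 1 SD with the marker score. The median of the 10 genes was -0.14 with the marker score as a covariate. Genes called by genotype numbered 0 with edgeR, 578 with DESeq2, 1 without the count filter and 732 with sex as a factor, and 0 to 5 when each library was left out (5 without Cdk7_KO 1). *Cdk7* passed the test with DESeq2 (-1.54), without the filter (-1.54), with sex as a factor (-1.43) and without Cdk7_KO 1 (-1.68, adjusted p = 0.0391), with -1.68 to -1.44 when each library was left out. The replicate block over the shared numbers called 5 genes. Pairing was not taken as given, since the correlation of same-numbered libraries was -0.10 for number 1, 0.31 for 3, 0.14 for 4 and 0.17 for 5. Genes called by sex numbered 55 with edgeR, 916 with DESeq2 and 19 to 1397 when each library was left out, and by the interaction 12 with DESeq2. Genes called on the marker score numbered 199, or 19 (without Cdk7_KO 4) to 483 (without Cdk7_KO 1) when each library was left out. In the order of levels, 5 of 10 places stayed with transcript length. The cause of these shifts was not tested. Depth limits *Cpt2* most, at 37 to 138 counts.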
